A study of Homo sapiens with 6 samples.

Results

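Direct target genes of the transcription factor p53 were examined in SW480 cells, a colon cancer cell line with mutant p53, in which *MDM4* was overexpressed. The genes were taken by name from a list of 34 well-known p53 targets, and all 34 were among the 19225 genes of the table. The control group consisted of 3 libraries and the MDM4 group of 3 libraries, each numbered as replicate 1, 2 or 3. Both groups were SW480 cells carrying mutant p53 and both are labelled as plasmid transfected, while the plasmid of the controls is not named. The paper describes the second group as transiently transfected with plasmids encoding MDM4, whereas its labels read "exercised", so it was taken as the MDM4 group because no other group exists. Expression is given as FPKM, in which the reads of a gene are divided by its length and by the size of its library. A single cell line and an unknown share of transfected cells limit the model. In such bulk samples, fewer cells expressing a gene and less RNA per cell cannot be told apart.

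Wild-type p53 binds DNA as a tetramer and raises the transcription of genes that stop the cell cycle, trigger apoptosis, repair DNA and adjust metabolism. MDM4 binds the transactivation domain of p53 and holds back this activity, and MDM2, itself a p53 target, marks p53 for degradation. In cells with mutant p53, as in many colon cancers, the target genes can still be transcribed under the control of other factors. The comparison asks what extra MDM4 changes in cells with mutant p53, and the direct p53 targets are the genes on which the canonical route would act.

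To show the kind of DNA element that p53 binds, the p53 decamer consensus was searched on both strands in RefSeq promoter windows, without mismatches. The decamer is 1 of the 2 parts of a complete p53 site. Each window had 300 bases (250 before and 50 after a transcript start, GRCh38.p14). The genes were not chosen by this element. Of the 34 genes, 30 had a window, and *GADD45A*, *TP53INP1*, *PHLDA3* and *RRM2B* had none. The decamer was found in 7 of 45 windows (15.6%), each of a different gene, against 2329 of all 35116 windows (6.63%). The stretches that hold it are given below in transcript direction, with the decamer in capitals.
*PLK2*, chr5:58460199-58460228, minus strand: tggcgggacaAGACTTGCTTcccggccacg
*SESN1*, chr6:109009018-109009047, minus strand: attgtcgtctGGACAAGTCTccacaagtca
*FAS*, chr10:88991299-88991328, plus strand: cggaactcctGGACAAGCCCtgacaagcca
*DDB2*, chr11:47214975-47215004, plus strand: gtttGAACAAGCCCtGGGCATGTTTggcgg
*RPS27L*, chr15:63157517-63157546, minus strand: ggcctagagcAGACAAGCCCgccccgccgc
*AEN*, chr15:88621296-88621325, plus strand: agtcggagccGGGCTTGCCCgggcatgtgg
*FDXR*, chr17:74872986-74873015, minus strand: gggcaggagcGGGCTTGCCCtgcggagcag
Only the window of *DDB2* held a complete site without a mismatch, 2 decamers separated by 1 base, among these 45 windows. Sites with a mismatch and sites outside the windows were not searched, so the other genes cannot be said to lack a complete site. Such a pair with a gap of up to 13 bases occurred in 10 of the 35116 windows (0.0285%). These matches are descriptions of the sequence and no binding was measured.

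The libraries had totals of 33044788 to 44729596 reads. The controls expressed *MDM4* itself at 6.35, 7.09 and 5.13 FPKM (replicates 1 to 3), and the MDM4 libraries at 188, 185 and 56.3 FPKM. The groups did not overlap (p = 0.1 by an exact permutation test, two-sided, below which 3 against 3 libraries cannot go), and replicate 3 of the MDM4 group was the lowest of the 3 MDM4 libraries. Replicate 3 stood apart from replicates 1 and 2 in both groups, so results are also given by replicate number. The epithelial genes *EPCAM*, *KRT8*, *KRT18* and *KRT19* were between 156 and 1876 FPKM in every library, whereas *CDX1* and *CEACAM5* were below 0.1 FPKM. Of the 15 leukocyte, fibroblast and endothelial markers, 11 had a mean below 0.5 FPKM, and *PTPRC* was at 0.0144 FPKM or less. *CD68*, the highest of them, was at 4.26 to 5.01 FPKM.

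Most of the p53 target genes were expressed in these p53-mutant cells. With a mean of at least 0.5 FPKM over the 6 libraries, 32 of 34 were tested, with mean levels from 1.37 FPKM (*ACER2*) to 112 FPKM (*GDF15*). Their median level was 16.5 FPKM against 11.2 FPKM for all 12884 genes tested, and each of the 32 had at least 101 reads in every library. *GDF15*, which encodes a secreted stress cytokine of the TGF-β superfamily, and *CDKN1A*, which encodes the cyclin-dependent kinase inhibitor p21, had mean levels above those of 95.8% and 95.1% of tested genes. *BAX*, *CCNG1*, *PERP*, *PHLDA3* and *PLK2* followed, each above 89% or more of them.

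Both genes that fell below the filter belong to cell death. *EDA2R*, an X-linked receptor of the TNF receptor superfamily, was at 0.111, 0.0871 and 0.0926 FPKM in control and 0.0852, 0.0536 and 0.0564 FPKM in MDM4 replicates 1 to 3. The groups did not overlap, but the values rest on 3 to 8 reads per library. *SPATA18*, which acts in mitochondrial quality control, was at 0.0882 FPKM in control replicate 3, recovered as 3 reads, and at 0 in the other 5 libraries. For a count of 0, the limit is 3 reads.

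**Figure D1:**
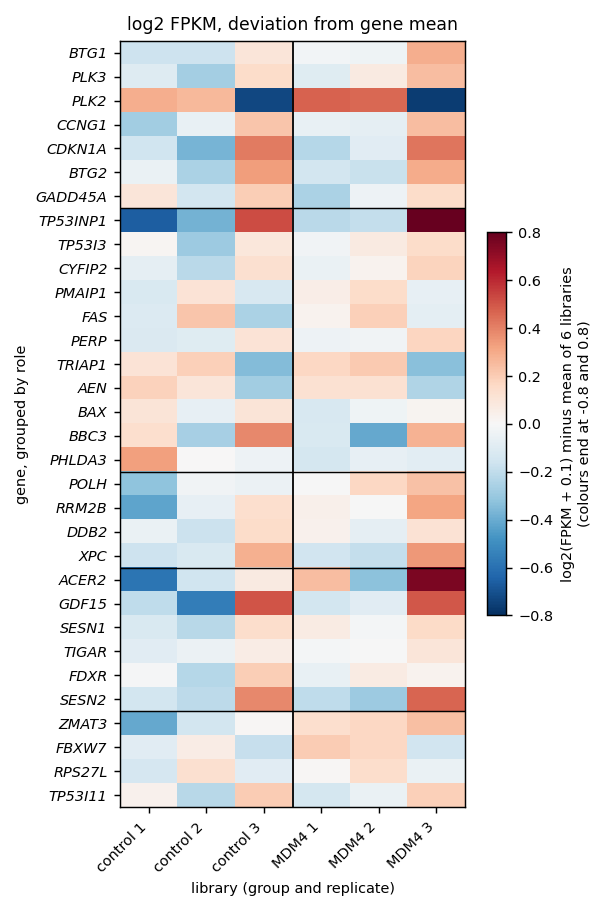
Heat map of the 32 tested p53 target genes (rows, grouped from top to bottom as cell cycle, cell death, DNA repair, metabolism and stress, and others) in the 6 libraries (columns). Colour gives log2(FPKM + 0.1) minus the mean of the gene over the 6 libraries, with colours ending at -0.8 and 0.8. The strongest colours lie in the replicate 3 columns of both groups, with *PLK2* low and *TP53INP1*, *GDF15* and *CDKN1A* high.

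Between MDM4 and control, no p53 target gene passed the threshold. Of 12884 genes tested with limma without a block, 0 (0%) had an adjusted p under 0.05 with an absolute log2 fold change over 1, and so 0 of the 32. *MDM4* itself did not pass either, with a log2 fold change of 4.33 and a limma adjusted p of 0.161. This fit did not call even that difference, so its 0 calls do not show that the p53 target genes were unchanged. At an unadjusted p under 0.05 there were 222 genes (1.72%), 1 of which, *ZMAT3*, is a p53 target. Voom on reads recovered from the FPKM values also called 0 genes. Blocking on the replicate number left 2 genes (0.0155%) with an adjusted p under 0.05, neither of them a p53 target. Over replicates 1 and 2 alone, 74 of 12746 genes (0.581%) had an adjusted p under 0.05, and 0 of the 32 were among them. The labels do not say that the replicates came from separate cultures, so that these p-values measure only the spread between the libraries.

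The differences between MDM4 and control were small. Of the 32 genes, 25 were higher and 7 lower with MDM4, the median log2 fold change being 0.08, beside 6081 higher and 6803 lower of all tested genes and a median of -0.01. Without control replicate 3 the median of the 32 genes was 0.14, without control replicate 2 it was 0.045, and without MDM4 replicate 3 it was 0.028. Taken within replicate numbers, the 32 genes had medians of 0.07, 0.09 and 0.04 in replicates 1, 2 and 3. MDM4 was above control in all 3 same-numbered pairs for 14 of the 32 genes, against 16.6% of all tested genes, and below in all 3 pairs for 2 of the 32, *BBC3* and *PHLDA3*, against 18.6%. The 14 genes were *BTG1*, *PLK3*, *PMAIP1*, *PERP*, *TP53INP1*, *CYFIP2*, *TRIAP1*, *POLH*, *RRM2B*, *SESN1*, *TIGAR*, *ZMAT3*, *FBXW7* and *RPS27L*. The 32 genes are a list and not replicates, so their counts are given as a description. The pairing of replicates 1 and 2 across the groups rests on their labels alone.

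The intervals show which changes these libraries still allow. The 95% interval of the log2 fold change lay inside 2-fold in either direction for 29 of 32 genes, beside 12125 of all 12884 tested genes. The exceptions among the 32 were *PLK2* (-0.78 to 1.02), *TP53INP1* (-0.57 to 1.26) and *ACER2* (-0.29 to 1.19). Blocked on the replicate number, the interval lay inside 2-fold for 32 of 32 genes and inside 1.5-fold for 31, the exception being *ACER2* (-0.01 to 0.91). Over all 12884 tested genes, these counts were 12710 and 11680, so narrow intervals were not particular to the p53 target genes. For *CDKN1A* the interval was -0.46 to 0.61 without and -0.08 to 0.22 with the block.

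**Figure D2:**
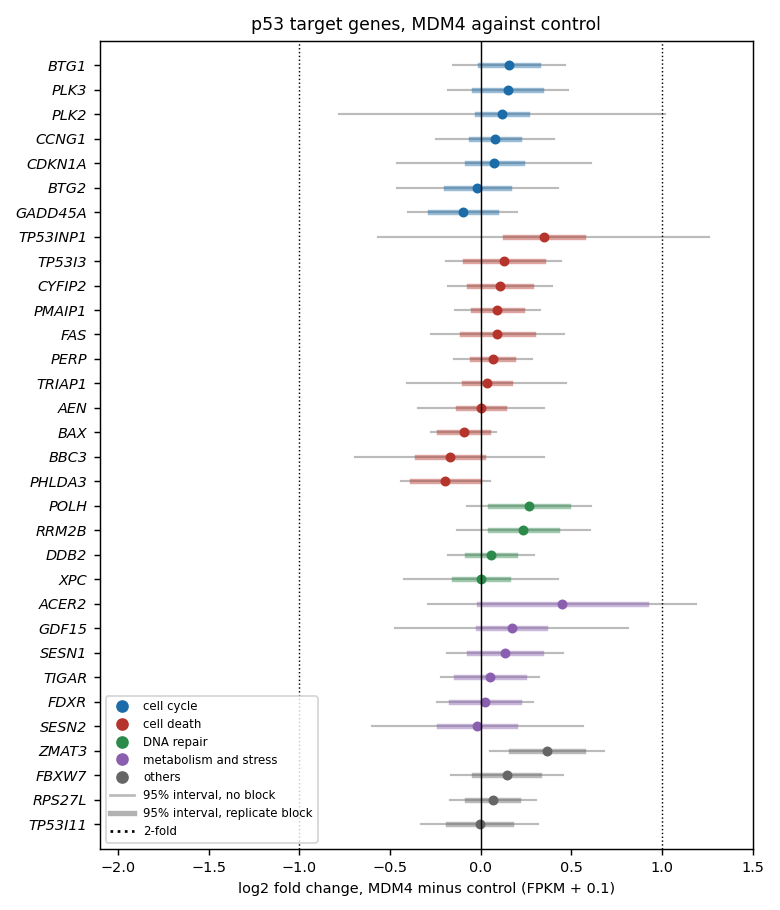
Log2 fold change (MDM4 minus control, on the FPKM + 0.1 scale) of the 32 tested p53 target genes, coloured by role. Thin grey lines are 95% intervals from limma without a block, thick lines those with the replicate block, and dotted lines mark 2-fold. Points lie between -0.19 (*PHLDA3*) and 0.45 (*ACER2*), and 3 thin lines, those of *PLK2*, *TP53INP1* and *ACER2*, cross the 2-fold line.

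The 3 tested genes whose groups did not overlap were *ZMAT3* and *POLH*, higher with MDM4, and *PHLDA3*, lower with MDM4. Among all tested genes, 399 (3.1%) were higher and 484 (3.76%) lower without overlap. *ZMAT3* encodes a zinc finger protein that binds RNA and is encoded by the minus strand of chromosome 3 (179017223 to 179072279, GENCODE release 29, GRCh38). It was at 5.27, 6.34 and 7.08 FPKM in control and 7.74, 7.91 and 8.33 FPKM in MDM4 replicates 1 to 3, from 2047 to 2578 reads. Each MDM4 library was thus above every control library, the lowest being 1.09-fold above the highest control. The means were 6.23 ± 0.910 FPKM in control and 7.99 ± 0.305 FPKM with MDM4 (SD, n = 3 each), which did not pass the test (log2 fold change 0.36, standard error 0.14, limma adjusted p = 1.0). Blocking on the replicate number gave a limma adjusted p of 0.249, and over the alternatives it was between 0.0656 and 1.0.

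*POLH* encodes DNA polymerase eta, which copies past ultraviolet damage, and is encoded by the plus strand of chromosome 6 (43576150 to 43615660). It was at 3.17, 3.90 and 3.85 FPKM in control and 3.98, 4.49 and 4.70 FPKM in MDM4 replicates 1 to 3. The lowest MDM4 library exceeded the highest control by 1.02-fold, close to touching (log2 fold change 0.27, standard error 0.15, limma adjusted p = 1.0). An exon of *POLH* overlaps *GTPBP2* on the opposite strand, and whether reads were counted by strand is not given. *PHLDA3*, an inhibitor of AKT signalling, was at 68.3, 54.3 and 52.8 FPKM in control and 49.2, 51.8 and 51.2 FPKM in MDM4 replicates 1 to 3. Control replicate 1 held most of this difference, and the other 2 controls lay just above the MDM4 libraries (log2 fold change -0.19, standard error 0.10, limma adjusted p = 1.0).

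Under the blocked limma test, 5 of the 32 genes were under an unadjusted threshold of 0.05, against 1624 of all 12884 genes (12.6%). They were *ZMAT3*, *TP53INP1*, *RRM2B* and *POLH*, each higher with MDM4, and *PHLDA3*, lower with MDM4, and none passed the adjustment. Their blocked 95% intervals on the log2 scale were 0.16 to 0.56, 0.13 to 0.56, 0.05 to 0.42, 0.05 to 0.48 and -0.38 to -0.01, in that order. *RRM2B*, the p53-inducible subunit of ribonucleotide reductase, was at 13.2, 17.0 and 19.5 FPKM in control and 18.3, 17.7 and 22.1 FPKM in MDM4 replicates 1 to 3. Its difference from the control of the same number was 0.46, 0.06 and 0.18 on the log2 scale, so that replicate 1 carried most of it.

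**Figure D3:**
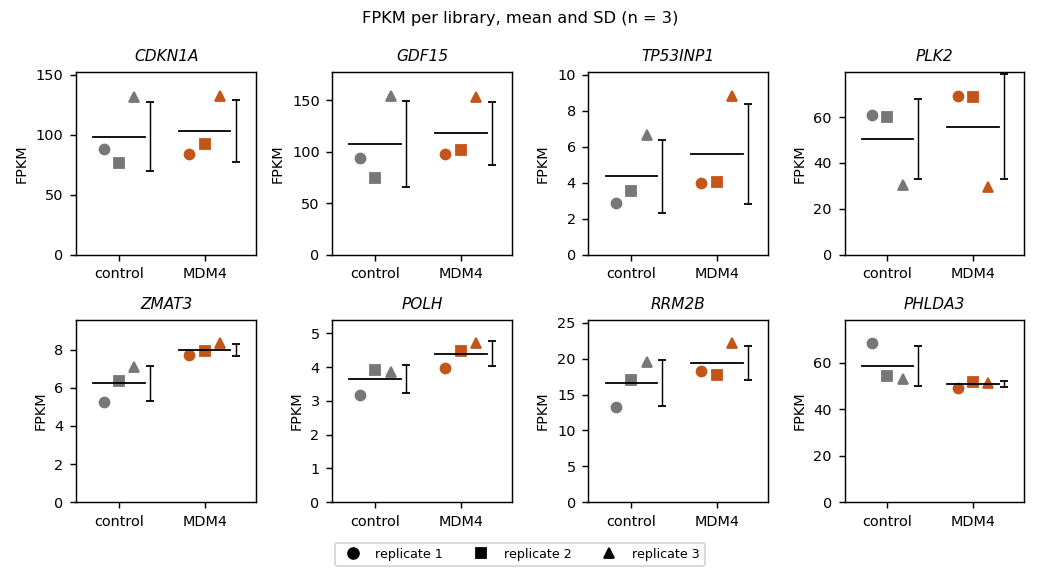
FPKM of 8 p53 target genes in each library, with circles, squares and triangles for replicates 1, 2 and 3. Horizontal lines are group means and bars are SD (n = 3). In *CDKN1A*, *GDF15* and *TP53INP1* both triangles lie above all other points and in *PLK2* below them, while in *ZMAT3* and *POLH* the MDM4 points lie above the control points and in *PHLDA3* below them.

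Most of the p53 target genes differed more between replicate numbers than between MDM4 and control. A limma F test of the replicate number beside the group had an adjusted p under 0.05 in 16 of the 32 genes, against 4410 of all 12884 (34.2%). Both replicate 3 libraries were above the other 4 in 19 of the 32 genes, against 37.3% of tested genes, and below them in 4, against 18.4%. The difference between replicate 3 and the mean of replicates 1 and 2 was larger in size than the difference between MDM4 and control in 29 of the 32 genes (90.6%) and in 75.8% of all tested genes. This count is a description without a test. Without control replicate 3 or without MDM4 replicate 3, 8 genes passed the F test in place of 16, while the share of all tested genes fell to 18.2% and 15.8%. Without a variance trend 10 of the 32 and 22.5% of all tested genes passed it.

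The shift of replicate 3 had the same sign in control and MDM4 libraries for 31 of 32 genes, against 83.9% of all tested genes. Across the 32 genes, the shift in the control and that in the MDM4 libraries had a Pearson's r of 0.95, and across all 12884 genes the r was 0.78. No library is shared between both shifts, but genes are not independent replicates, and whether same-numbered libraries share a preparation is not stated. Some markers of other cell types moved with the replicate number too. Of the 5 fibroblast markers only *COL1A1* passed the filter, with a replicate 3 shift of 0.90 in control and 0.94 in MDM4 libraries, and the sum of all 5 ranged from 1.61 to 3.77 FPKM in control and from 1.88 to 3.83 FPKM in MDM4 libraries. *DCN* and *LUM*, which define fibroblasts, had 0 to 1 read per library. The part of other cells in the replicate 3 shift was not tested.

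**Figure D4:**
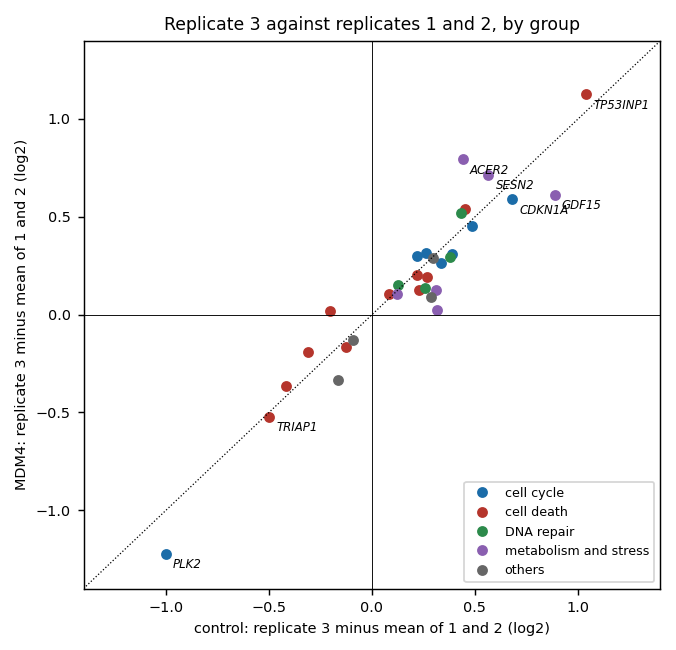
Shift of replicate 3 against the mean of replicates 1 and 2 on the log2(FPKM + 0.1) scale in control (horizontal axis) and MDM4 libraries (vertical axis), for the 32 tested p53 target genes coloured by role. The dotted line marks equal shifts. *PLK2* lies at the lower left (-1.0 and -1.22) and *TP53INP1* at the upper right (1.04 and 1.13).

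Among the 7 cell cycle genes, all were tested and 5 passed the test of the replicate number, beside 34.2% of all tested genes. *CDKN1A* was at 87.9, 76.0 and 131 FPKM in control and 83.9, 92.1 and 132 FPKM in MDM4 replicates 1 to 3 (limma F test, adjusted p = 7.26e-04). Both groups thus had nearly the same value in replicate 3, and the group means were 98.3 ± 28.9 and 103 ± 25.9 FPKM (SD, n = 3 each; log2 fold change 0.07, standard error 0.23). *PLK2*, a polo-like kinase of the stress response, moved the other way, at 61.1, 60.0 and 30.2 FPKM in control and 69.4, 68.8 and 29.5 FPKM in MDM4 replicates 1 to 3 (limma F test, adjusted p = 5.72e-05). It was the gene of the group with the largest shift, at 0.499 of the level of replicates 1 and 2 in control and 0.428 in MDM4 libraries. Over replicates 1 and 2 its log2 difference between MDM4 and control was 0.19, and in replicate 3 it was -0.03.

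*BTG2*, an antiproliferative gene and the lowest of the cell cycle group, was at 7.96, 6.94 and 10.5 FPKM in control and 7.47, 7.31 and 10.2 FPKM in MDM4 replicates 1 to 3. Its relative *BTG1* was at 9.21, 9.21 and 11.1 FPKM in control and 10.2, 10.1 and 12.6 FPKM in MDM4 replicates. *CCNG1*, encoding cyclin G1, was at 55.9, 65.2 and 79.0 FPKM in control and 65.2, 64.7 and 80.4 FPKM in MDM4 replicates. All 3 were highest in replicate 3 of either group and passed the F test of limma (adjusted p = 0.00538, 0.0372 and 0.00609). *PLK3*, another polo-like kinase, and *GADD45A*, which arrests the cell cycle after DNA damage, did not pass it (adjusted p = 0.0608 and 0.0985 from limma), and their log2 fold changes with MDM4 were 0.15 and -0.10.

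Of the 13 cell death genes, 11 were tested, and 8 were higher and 3 lower with MDM4, beside 47.2% higher of all tested genes. The test of the replicate number was passed by 6 of the 11, beside 34.2% of all tested genes. *TP53INP1*, a stress-induced nuclear protein gene and the lowest tested gene of the group, was at 2.87, 3.52 and 6.64 FPKM in control and 3.95, 4.03 and 8.83 FPKM in MDM4 replicates 1 to 3 (limma F test, adjusted p = 3.46e-04). MDM4 was above control by 0.45, 0.19 and 0.41 on the log2 scale in replicates 1 to 3, while replicate 3 was 2.05-fold above replicates 1 and 2 in control and 2.18-fold in MDM4 libraries. *BAX*, which permeabilizes the outer mitochondrial membrane, was the highest of the group at 77.0, 68.3 and 76.9 FPKM in control and 65.4, 70.0 and 72.8 FPKM in MDM4 replicates. Neither the group (log2 fold change -0.09, standard error 0.08, adjusted p = 1.0) nor the replicate number (adjusted p = 0.453) passed the limma tests for it.

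The 2 BH3-only genes differed in direction. *BBC3*, encoding PUMA, was at 7.33, 5.54 and 8.76 FPKM in control and 6.11, 5.01 and 8.10 FPKM in MDM4 replicates 1 to 3, and was lower in each MDM4 library than in its same-numbered control (log2 fold change -0.17, standard error 0.22). *PMAIP1*, encoding NOXA, was at 23.6 to 27.9 FPKM in control and 24.7 to 28.6 FPKM in MDM4 libraries and higher in each pair (log2 fold change 0.09, standard error 0.10). Neither difference exceeded the spread between replicates.

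*FAS*, the death receptor, was at 5.69, 7.20 and 5.15 FPKM in control and 6.28, 7.03 and 5.81 FPKM in MDM4 replicates 1 to 3, with replicate 2 the highest of either group. *TRIAP1*, which restrains apoptosis, was at 32.2, 34.1 and 23.4 FPKM in control and 33.6, 34.6 and 23.7 FPKM in MDM4 replicates. *AEN*, an apoptosis-enhancing nuclease, was at 41.6, 39.2 and 30.2 FPKM in control and 39.9, 39.9 and 31.0 FPKM in MDM4 replicates. In both *TRIAP1* and *AEN*, replicate 3 lay below all other libraries (limma F test, adjusted p = 9.01e-04 and 0.00300), and MDM4 and control means were almost equal, with log2 fold changes of 0.03 and 0.00056. *PERP*, a membrane protein of desmosomes, was at 58.5, 59.4 and 68.5 FPKM in control and 61.7, 62.1 and 71.3 FPKM in MDM4 replicates, highest in replicate 3 of either group. *TP53I3*, a quinone oxidoreductase gene, and *CYFIP2* did not pass either test.

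In DNA repair and nucleotide supply, all 4 genes were higher with MDM4, beside 47.2% of all tested genes. They lay between 0.0025 (*XPC*) and 0.27 (*POLH*) on the log2 scale, and none passed the test. The values of *XPC* (standard error 0.18) and *DDB2* (0.06, standard error 0.10) changed sign in some alternatives, reaching -0.17 and -0.02. *XPC* and *DDB2* recognize lesions in nucleotide excision repair. *DDB2*, the highest of the group and the gene with the complete p53 site shown above, was at 30.5, 28.1 and 35.0 FPKM in control and 32.5, 30.2 and 34.4 FPKM in MDM4 replicates 1 to 3. *XPC* was at 13.3, 13.7 and 18.2 FPKM in control and 13.4, 13.1 and 19.0 FPKM in MDM4 replicates. In *XPC* and *RRM2B* the replicate number passed the F test of limma (adjusted p = 0.00273 and 0.0270), and both were highest in replicate 3 of either group.

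Of the 6 genes of metabolism and stress, 5 were higher and 1 lower, with a median of 0.09 on the log2 scale, beside 47.2% higher of all tested genes. *GDF15* was at 94.1, 73.8 and 154 FPKM in control and 98.0, 102 and 153 FPKM in MDM4 replicates 1 to 3 (limma F test, adjusted p = 8.12e-04). *SESN2*, whose protein restrains mTORC1, was at 3.97, 3.79 and 5.78 FPKM in control and 3.81, 3.58 and 6.12 FPKM in MDM4 replicates (limma F test, adjusted p = 0.00326). In both genes replicate 3 was above all other libraries, and MDM4 replicate 2 was above control replicate 2 in *GDF15* but not in *SESN2*. *ACER2*, an alkaline ceramidase gene and the lowest tested gene of all, was at 0.839, 1.16 and 1.38 FPKM in control and 1.57, 1.02 and 2.27 FPKM in MDM4 replicates, from 101 to 214 reads. It had the largest log2 fold change of the 32 (0.45, standard error 0.32, limma adjusted p = 1.0), with overlapping groups and a lower MDM4 value in replicate 2. *SESN1* (0.13), *TIGAR* (0.05), which lowers glycolysis, and *FDXR* (0.02), which feeds electrons to mitochondrial enzymes, did not pass either test.

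Of the remaining genes, *TP53I11* was at 18.4, 15.4 and 20.7 FPKM in control and 16.3, 17.3 and 20.5 FPKM in MDM4 replicates 1 to 3 and passed the test of the replicate number (limma F test, adjusted p = 0.0442). *RPS27L*, a ribosomal protein gene with a close relative in *RPS27* that could share reads, was at 19.4, 23.2 and 19.9 FPKM in control and 21.4, 23.5 and 20.5 FPKM in MDM4 replicates. *FBXW7*, the substrate receptor of a ubiquitin ligase, was at 8.65, 9.61 and 8.12 FPKM in control and 10.6, 10.3 and 8.29 FPKM in MDM4 replicates. The difference of *FBXW7* between MDM4 and control was thus 0.29 and 0.10 on the log2 scale in replicates 1 and 2 and 0.03 in replicate 3.

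The wider p53 pathway was read from further lists, none of which held a gene that passed the test without a block. With the replicate block, *MDM4* itself passed (log2 fold change 4.33, limma adjusted p = 4.77e-05) and no other gene of these lists did. Of 30 further p53 target genes, 28 were tested, 15 were higher and 13 lower with MDM4, and their median log2 fold change was 0.02. With the replicate block, 9 of the 28 were under an unadjusted 0.05 by limma, against 12.6% of all tested genes, and 0 passed the adjustment. *TNFRSF10D*, a decoy receptor for TRAIL, was the highest, at 19.97, 18.8 and 33.5 FPKM in control and 33.8, 32.3 and 34.7 FPKM in MDM4 replicates 1 to 3 (log2 fold change 0.53, standard error 0.20, limma adjusted p = 1.0). Control replicate 3 reached the level of the MDM4 libraries, so the groups of *TNFRSF10D* overlapped. *TP53AIP1* was the lowest (-0.23). *MDM2* was at 22.6, 25.6 and 19.8 FPKM in control and 28.7, 30.7 and 23.2 FPKM in MDM4 replicates (log2 fold change 0.28, standard error 0.14, limma adjusted p = 1.0), higher in each same-numbered pair. The p53 relative *TP73* was at 3.15 to 5.71 FPKM in control and 3.40 to 5.17 FPKM in MDM4 libraries, and *TP63* did not exceed 0.0385 FPKM.

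Genes that p53 lowers through p21 and the DREAM complex were read beside *CDKN1A*. All 16 were tested, 6 were higher and 10 lower with MDM4, with a median of -0.05, from -0.26 for *CDC25C*, a mitotic phosphatase, to 0.10 for *MKI67*, a marker of proliferation. In replicate 3, where *CDKN1A* was higher, the median of these 16 genes was lower than in replicates 1 and 2 by 0.10 on the log2 scale in control and in MDM4 libraries. Of 14 targets of ATF4 and CHOP, the factors of the integrated stress response that also act on *SESN2*, 13 were tested, *SESN2* among them. Their median shift of replicate 3 was 0.15 in control and 0.03 in MDM4 libraries, beside 0.09 and 0.10 for all tested genes. The part of either programme in the shift of *CDKN1A*, *GDF15* and *SESN2* was not tested. With MDM4, the lowest of the ATF4 and CHOP targets was *ATF3* (-0.55) and the highest *SLC7A11* (0.37), and limma gave both an adjusted p of 1.0. With the replicate block, 4 of these 13 genes and 2 of the 16 DREAM genes were under an unadjusted 0.05 by limma. The share of all tested genes was 12.6%, and 0 of either list passed the adjustment.

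For comparison, 18 of 20 interferon-stimulated genes passed the filter, and all 18 were lower with MDM4, with a median of -1.35. The list holds *XAF1*, *OAS1*, *IFI27*, *IFI44* and *IFIT3*, which the paper chose for qPCR after this sequencing. The lowest value was that of *XAF1* (-2.41), which passed the filter through its control libraries. Its mean was 1.10 FPKM in control and 0.0861 FPKM with MDM4, the latter from 4 to 16 reads per library. The 0.1 added before taking logs thus affects its fold change. Of the 18 genes, 0 passed the adjusted threshold. With the replicate block, 18 of 18 were under an unadjusted 0.05, against 12.6% of all tested genes, and 0 passed the adjustment. Their median by replicate number was -2.15, -1.75 and -0.05 in replicates 1 to 3, beside 0.07, 0.09 and 0.04 for the p53 target genes. The difference between both lists was not tested.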

How the data were processed

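RNA sequencing of 6 SW480 libraries (oligo(dT)-enriched mRNA, Illumina HiSeq2000) was used. The authors deposited FPKM values per gene symbol, and the aligner, annotation and genome build are not given in the sources used here. Column letters were read as control and MDM4 from the labels and the paper, and replicate numbers from both. Because each FPKM value is a whole number of reads times a factor of gene and library, library totals and the reads of all 17189 genes above 0 were recovered (100% of values whole, relative tolerance 2e-08).

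Genes averaging 0.5 FPKM or more over the 6 libraries were kept (12884), and limma 3.58.1 (R 4.3.3, trended eBayes) was run on log2(FPKM + 0.1) with Benjamini-Hochberg adjustment. Fold changes on this scale understate those of low genes. The script was tested on simulated reads, which carried no difference between replicate numbers and so do not give the sensitivity in these libraries. Deviations from group means correlated at 0.46, 0.45 and 0.78 between same-numbered libraries, over 0.1 in each. The libraries were paired by number. Replicates 1 and 2 correlated as well with each other across the groups (0.46 and 0.44). Over the tested p53 target genes, these cross-numbered values were 0.69 and 0.71, against 0.59 and 0.57 between the same numbers. A shift of replicate 3 shared by both groups tends to give replicates 1 and 2 a positive correlation, however they are numbered. The threshold of 0.1 thus cannot decide how replicates 1 and 2 pair. Their same-numbered pairs, and their place in the replicate block, rest on the labels. Exact permutation tests used scipy 1.17.1, and plots matplotlib 3.10.9.

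The genes and lists were chosen with earlier results of these data known. Named are all 34 genes, *MDM4*, and the highest and lowest gene of each further list, apart from some that are not reported here. *MDM2* and *TP73*, and the markers of cell types, were named as members of their lists. Values per library are given for genes without overlap, those called, and the highest and lowest of each role, and for *FBXW7*, which was chosen after its values were seen. Of the 34 genes, 13 have an exon that overlaps a gene on the opposite strand in GENCODE release 29. Intervals of fold changes are from limma and reflect the spread between libraries, and the limit of 3 reads covers counting error only.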

Additional observations from a re-analysis of the deposited data

How the results depend on the processing

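Across 18 alternatives to the fit of MDM4 against control, 0 of the 32 p53 target genes were called by limma or voom, and the smallest adjusted p was 0.0656 (*ZMAT3*, voom with the replicate block). Of 576 values of single genes, 532 kept their sign, and 44 in 16 genes changed it, each by less than 1 standard error. By an unadjusted p under 0.05, 1 gene was called.

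The replicate block changed no call of a p53 target gene. It raised the count over all genes from 0 to 2 and brought *MDM4* past the threshold (log2 fold change 4.33). With voom on recovered reads and the replicate block, 15 genes were called and *MDM4* had 4.44. Over replicates 1 and 2 only, 37 genes were called, *MDM4* had 4.78, the median of the p53 target genes was 0.10, and 14 of them had groups that did not overlap, a count that smaller groups raise by construction (38.7% of all tested genes, against 6.85% with 6 libraries). With TPM scaling the median was 0.11. Leaving out 1 library gave 0 to 16 genes called, the latter without control replicate 3, and 4.03 to 4.91 for *MDM4*. It gave medians of 0.028 (without MDM4 replicate 3) to 0.14 (without control replicate 3), and 3 to 12 genes without overlap, beside 9.1% to 26.2% of all tested genes. The 12 genes were found without control replicate 3, with 19.2% of all tested genes. For the replicate number, 8 to 23 of the 32 genes were called with 1 library left out (15.8% to 46.2% of all tested genes), and 10 with eBayes without trend. The causes were not tested.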
